A study of Triticum aestivum with 4 samples.

Results

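The isolated peaks of the wheat clock protein TaCCA1-7D are those whose nearest neighbouring summits, on both sides, lie more than 100 kb away. They were chosen by summit position, by sorting the authors' deposited peaks on the 21 named chromosomes by summit, the base of highest signal, and leaving out the first and last peak of each chromosome. The rule found 1066 isolated peaks among 460130 peaks on the chromosomes, or 0.232% (95% Wilson interval 0.218 to 0.246%), out of 467343 peaks in the whole list. The rule used only the distances between summits, and the isolation and all values read from the same peak calls are given as a description, with no test.

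The peaks came from DNA affinity purification sequencing (DAP-seq), in which a purified protein on beads captures sheared, naked genomic DNA and the captured fragments are sequenced. The bait was TaCCA1-7D fused to maltose-binding protein, and the DNA came from leaves of 2-week-old seedlings of the cultivar Fielder grown under long days. The study had 2 TaCCA1-7D libraries and 2 input libraries of the same DNA source. Peaks were deposited as 1 list for the experiment without a split by library, which leaves no replicate error to report, and Wilson intervals cover counting error only. The bait was a recombinant fusion and the DNA carried no chromatin, so the peaks describe binding in the tube and not occupancy in a leaf cell. The reads of Fielder were placed on the Ensembl wheat genome, which is that of the cultivar Chinese Spring, and only reads of sufficient mapping quality were kept.

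CIRCADIAN CLOCK-ASSOCIATED 1 (CCA1) is a MYB-related transcription factor at the core of the plant circadian clock, best known from Arabidopsis, where it accumulates around dawn and represses evening-expressed genes. It recognises a short AT-rich site called the evening element, and related sites occur throughout a large genome, most of them outside genes. Bread wheat is a hexaploid with A, B and D subgenomes, each of 7 chromosomes, and most of its DNA is made of transposable elements. The genome sequence and gene annotation of the build were not used here, so peaks are identified by position, with no bases and no nearest genes.

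Neighbouring summits lay a median of 20.97 kb apart, with quartiles at 10.4 and 40.1 kb over 460109 gaps. Gaps over 100 kb numbered 15585, which is 3.39% of the gaps and 16.1% of the length. Among gaps over 100 kb, 6.84% were followed by another such gap, against 3.27% of the gaps of at most 100 kb. A long gap was thus followed by a long gap more often than a short gap was, and each junction of long gaps is an isolated peak. Of all long gaps, 12.5% bordered at least 1 isolated peak, and this share was 58.8% of the 136 gaps over 500 kb and 75% of the 20 gaps over 1 Mb.

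Around the isolated peaks the nearer gap had a median of 121 kb (95% interval of the median 119 to 124 kb), with quartiles at 109 and 156 kb, and the farther gap a median of 183 kb. Most isolated peaks were near the limit, as 574 of them (53.8%) had a nearer gap under 125 kb. A nearer gap over 200 kb was found for 132 (12.4%), of which 95 were on B, 28 on A and 9 on D chromosomes. The peak just inside the limit, at 2B:675992585-675992970, had a nearer gap of 100.05 kb, a fold enrichment of 6.505 and a width of 386 bp. The peak just outside it, at 2B:322807080-322807790, had a nearer gap of 99.96 kb, a fold enrichment of 11.5 and a width of 711 bp.

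The peak with the most room on both sides was 2B:295021634-295021828, with gaps of 1004 kb to the left and 852 kb to the right. It was 195 bp wide, and its fold enrichment of 5.55 rested on 8 tags. Fold enrichment here is the ratio of the tags at the summit to the local background, with 1 added to both. The next was 1D:488744801-488745017, near the end of its chromosome, with gaps of 773 and 877 kb, a fold enrichment of 6.17 and 9 tags. The third, 5B:201785312-201785690, stood between gaps of 1416 and 763 kb and had a fold enrichment of 8.64 from 13 tags. The other 7 of the 10 with the largest nearer gap lay on 6B (3 peaks), 1B (2), 2A and 3B. All 10 had 8 to 13 tags at the summit and fold enrichments between 5.55 and 8.64. Of the 10, 9 had a local background at the lowest value of the list.

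The longest gap between neighbouring peaks anywhere on the chromosomes was 2.22 Mb, on 5B between summits at 623226633 and 625450356. The next was 2.02 Mb on 5B, from 384310781 to 386330533. The third was 1.65 Mb on 2B from 728918071 to 730565595, the fourth 1.61 Mb on 3B from 517798717 to 519409544 and the fifth 1.42 Mb on 5B from 200369329 to 201785518. All 5 lay on B chromosomes, and each had an isolated peak on at least 1 side. Of the 20 gaps over 1 Mb, 17 were on B, 2 on A and 1 on D. Gaps over 500 kb numbered 85 on B, 34 on A and 17 on D. Gaps over 100 kb differed much less, at 3.55% of the gaps on B, 3.12% on A and 3.52% on D.

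The peak caller numbers its calls along the chromosome, and the authors then removed calls with a fold enrichment of 5 or less or a false discovery rate of 1e-5 or more. Numbers missing between neighbouring peaks therefore count the removed calls inside a gap. Over all gaps there were 44.4 removed calls per Mb. In the gaps beside isolated peaks there were 19.8 per Mb, and in the other gaps over 100 kb 39.8 per Mb. These sets differ in gap length. Gaps of 100 to 200 kb made up 194 of 378 Mb beside isolated peaks and 1610 of 1881.5 Mb in the other long gaps. The rate beside isolated peaks went down with gap length, from 30.1 per Mb in gaps of 100 to 200 kb to 14.03 at 200 to 300 kb, 8.25 at 300 to 500 kb, 4.72 at 500 to 1000 kb and 4.02 above. In the other gaps over 100 kb the rate also went down with length. It was 42.9 per Mb at 100 to 200 kb, 28.3 at 200 to 300 kb, 12.1 at 300 to 500 kb and 7.16 at 500 to 1000 kb. The fall with length was thus not particular to gaps beside isolated peaks, whose rates were lower in each of these classes. The longest gaps thus held few removed calls as well, and the 2.22 Mb gap on 5B held 5.

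Single isolated peaks spread over this whole range, with a median of 18.2 removed calls per Mb in their gaps (95% interval 16.5 to 20.2) and quartiles at 7.08 and 37.8. Removed calls were at or above the rate of the whole list around 207 isolated peaks (19.4%), whose gaps held as many weak calls as the list did on average. They were under 10 per Mb around 359 (33.7%) and between these limits around 500. No call had been removed in either gap around 28 isolated peaks, of which 19 were on B, 7 on A and 2 on D, and 18 in the outer 10% at either end of a chromosome. The gaps around the 207 peaks therefore lacked only peaks past the filter, not weak calls, and do not match the name of a binding desert.

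Isolated peaks with call-poor surroundings also differed from the others in width, background and place. Their gaps were longer too, so these sets also differ in the distances that the rule used. The median nearer gap was 170 kb at up to 5 removed calls per Mb and 109.6 kb above 45. At up to 5 removed calls per Mb, 202 isolated peaks had a median width of 292 bp, 82.7% had the lowest local background of the list, 53.5% lay in the outer 10% at either chromosome end and 69.3% on B chromosomes. Above 45 removed calls per Mb, 202 isolated peaks had a median width of 472 bp, 19.8% had the lowest background, 15.8% lay in the outer 10% and 34.2% were on B. The median fold enrichment was 6.17 in the first and 6.39 in the second set. Fold enrichments above 10 numbered 14 and 7. Surroundings with few removed calls thus went with narrow peaks on a low background, on B chromosomes and at chromosome ends.

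**Figure D1:**
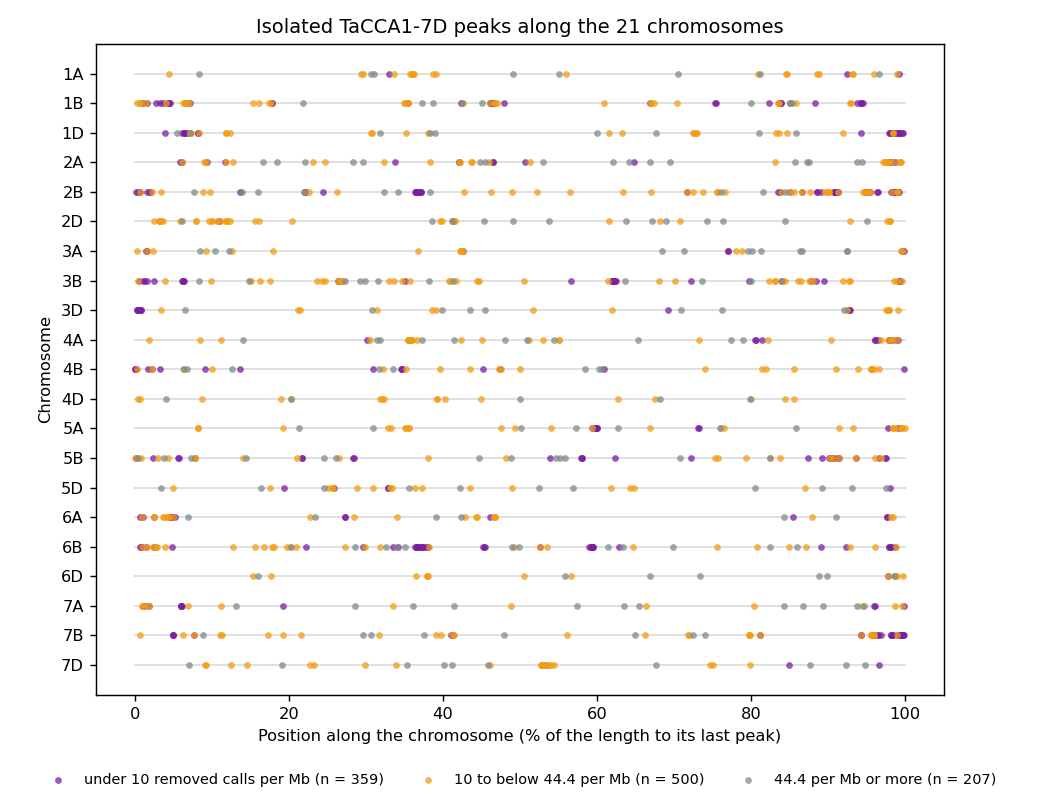
Each point is 1 of the 1066 isolated peaks, placed by its position along its chromosome in percent of the length to the last peak (horizontal axis), with a row per chromosome and colours for the number of calls removed per Mb in its 2 gaps. Points crowd at the chromosome ends and, on many chromosomes, between 30 and 50%, and the 359 peaks with under 10 removed calls per Mb include tight groups on 1D, 2B, 3B, 6B and 7B.

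At the distance of 100 kb, isolated peaks were most frequent towards the chromosome ends. This did not hold at more than 50 kb, where 60.4% of the isolated peaks lay in the middle 60% of the chromosome, against 59.9% of all peaks and 45.9% of the isolated peaks at 100 kb. In steps of 10% of the length to the last peak, the first step held 183 isolated peaks, or 3.97 per 1000 peaks (95% Wilson interval 3.44 to 4.59), and the last held 227, or 4.92 (4.32 to 5.60). The lowest frequency was 1.28 per 1000 (0.994 to 1.65) between 70 and 80%. The first and last 10% together held 38.5% of the isolated peaks but 20.04% of all peaks, and their frequency exceeded that of the rest of the chromosome on 18 of 21 chromosomes, the exceptions being 4D, 5D and 7D. In the outer 5 Mb at each end the frequency was 8.88 per 1000 (6.87 to 11.5), from 58 isolated peaks among 6535.

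A smaller maximum lay between 30 and 40% of the length, with 138 isolated peaks or 3.13 per 1000 (2.65 to 3.70), followed by 2.19 (1.80 to 2.66) between 40 and 50%. The step from 30 to 40% also held 7 of the 20 gaps over 1 Mb, and 30 of the 132 isolated peaks with a nearer gap over 200 kb, against 39 in the last 10%. The frequency between 30 and 50% exceeded that of the other inner steps on 18 of 21 chromosomes, among them 7 of 7 on A, 5 of 7 on B and 6 of 7 on D. The positions of the centromeres were not used here. Peaks of any kind varied less, with 44105 to 47009 in each step of 10%. Their lowest count was between 30 and 40%, and the next lowest, 45216, between 40 and 50%. The gaps held 13.0 removed calls per Mb around isolated peaks of the outer 10% at each end, 19.2 around those between 30 and 50% and 22.9 around the remaining ones.

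The B subgenome held 526 of the isolated peaks (49.3%), the A subgenome 294 and the D subgenome 246. Per 1000 peaks this was 3.14 on B (95% Wilson interval 2.88 to 3.42), 1.78 on A (1.59 to 2.00) and 1.93 on D (1.70 to 2.19). Over the 7 chromosomes of each subgenome, the frequency was 3.13 ± 0.716 on B, 1.78 ± 0.325 on A and 1.95 ± 0.7996 on D (SD over chromosomes of a single list, which is not a replicate error). B exceeded A in 7 of 7 homoeologous groups and D in 6 of 7. The order of B and D turned with the distance, since at more than 50 kb B exceeded A by 2.69 and D exceeded A by 4.25 per 1000 peaks. At more than 150 kb B minus A was 0.673 and D minus A -0.146, and at more than 200 kb they were 0.397 and -0.0991. In group 4 the margin was small, at 2.04 for 4B against 2.01 for 4A, far within their intervals. A and D overlapped, with a difference of 0.147 per 1000 (95% interval -0.165 to 0.468).

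**Figure D2:**
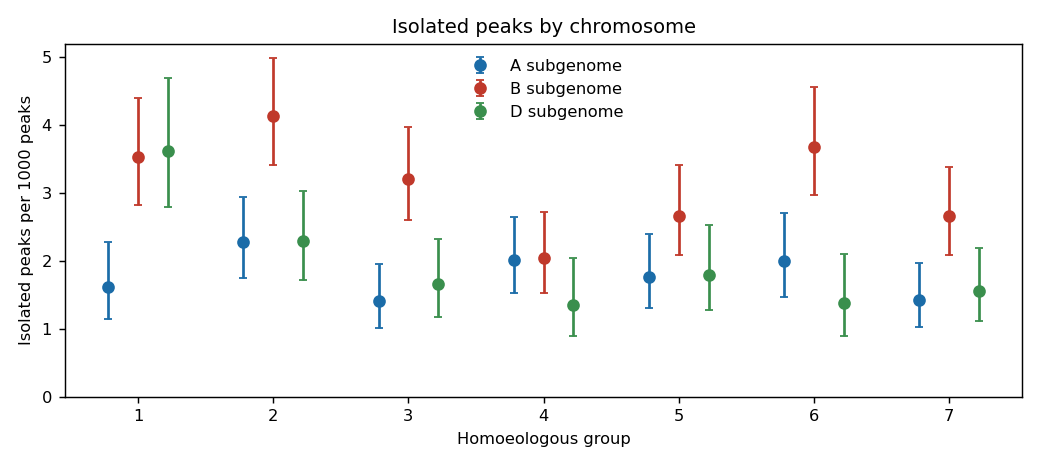
Isolated peaks per 1000 peaks (vertical axis) are shown for the A, B and D chromosome of each homoeologous group (horizontal axis), and bars are 95% Wilson intervals, which cover counting error only. Chromosome 2B is highest at 4.12, and 1D at 3.62 stands apart from the other D chromosomes, which lie between 1.35 and 2.28.

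Chromosome 2B had the most isolated peaks, 106 among 25711, or 4.12 per 1000 (3.41 to 4.98), and 4D the fewest by frequency, 22 among 16259, or 1.35 per 1000 (0.894 to 2.05). Among the D chromosomes 1D was highest, with 56 isolated peaks at 3.62 per 1000 (2.79 to 4.69). On 1D, chosen for this remark after its value was seen, 16 isolated peaks lay beyond 480 Mb and 12 below 40 Mb, against 28 in all the rest. Beyond 490 Mb, up to the last summit at 494.9 Mb, that chromosome held 37 peaks, and 7 of them were isolated.

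A minority of the isolated peaks lay in crowded windows. Of 1418 windows of 10 Mb, 539 held any, and the 43 windows with 5 or more (3.03%) held 283 isolated peaks, or 26.5% of them. The windows from 290 to 300 Mb on 2B and from 740 to 750 Mb on 7B led with 12 each. The window from 260 to 270 Mb on 6B held 9 isolated peaks among 78 peaks, the fewest peaks in any full window, where the median was 332. Among the 10 full windows with the fewest peaks, 5 were on 6B or 2B and all held isolated peaks, 3 to 12 each. On 7D, seen on the map and named after that, 9 isolated peaks lay between 336766367 and 347417012, a stretch of 10.7 Mb with 21.7 peaks per Mb, and none of their nearer gaps exceeded 174 kb.

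Peak density stayed low well beyond the 100 kb that the rule demands. Between 100 and 200 kb from an isolated summit there were 19.9 peaks per Mb on average (quartiles 10 and 30), against 33.7 (quartiles 25 and 40) around other peaks. The mean around isolated peaks was 71.3% of that around other peaks at 200 to 500 kb, 76.3% at 500 to 1000 kb, 83.3% at 1 to 2 Mb, 90% at 2 to 5 Mb and 96.2% at 5 to 10 Mb. The thinning around isolated peaks therefore extended over megabases, and it faded gradually.

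**Figure D3:**
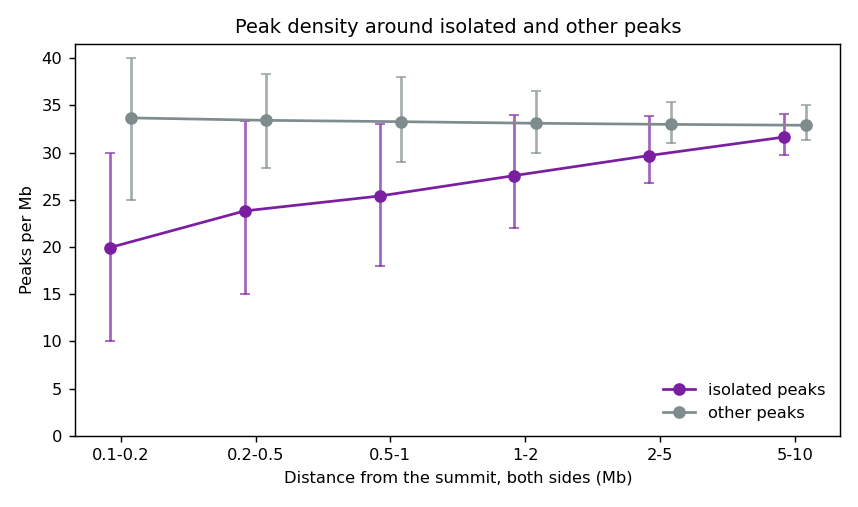
Peaks per Mb (vertical axis) are plotted against the distance from the summit on both sides (horizontal axis, in Mb), with points for the mean and bars for the quartiles over 1066 isolated and 458782 other peaks in the first class, and peaks too near a chromosome end left out. The mean around isolated peaks climbs from 19.9 to 31.6 peaks per Mb, while that around other peaks stays between 32.9 and 33.7.

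Isolated peaks were also next to each other. In 125 runs of 2 or more consecutive isolated peaks there were 311 of them (29.2%), and 186 long gaps had an isolated peak at both ends. Runs of 4 or more numbered 14, with 72 isolated peaks. Of these 14 runs, 3 were on 2B, 3 on 6B and 2 on 1D, and the others on 1B, 3B, 3D, 4A, 7A and 7B.

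The longest run had 9 isolated peaks over 5.09 Mb of chromosome 3B, from 514315996 to 519409544. Between its outer neighbours, 5.79 Mb apart, the caller had numbered 22 further calls that were removed, or 3.799 per Mb. From the first to the last, the fold enrichments were 5.55, 9.25, 11.2, 9.87, 23.6, 8.64, 12.3, 6.79 and 12.5. Their median was 9.87, above the 7.63 that marks the upper quartile of all isolated peaks, and 4 of the 9 exceeded a fold enrichment of 10. The strongest, 3B:515935405-515935817, had 58 tags at its summit, with gaps of 186 kb to the left and 1209 kb to the right. A place with few peaks over megabases thus held several strong ones.

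The second run, of 8 isolated peaks over 3.91 Mb of 2B from 291107554 to 295021734, was weak. Of its peaks, 4 had a fold enrichment of 5.55 from 8 tags, the lowest tag number in the list, and 1 exceeded 10, at 13.0 from 20 tags. All 8 had the lowest local background. It held 3.58 removed calls per Mb and ends at the peak with the most room on both sides, described above. Runs with as few calls thus differed in the strength of their peaks.

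**Figure D4:**
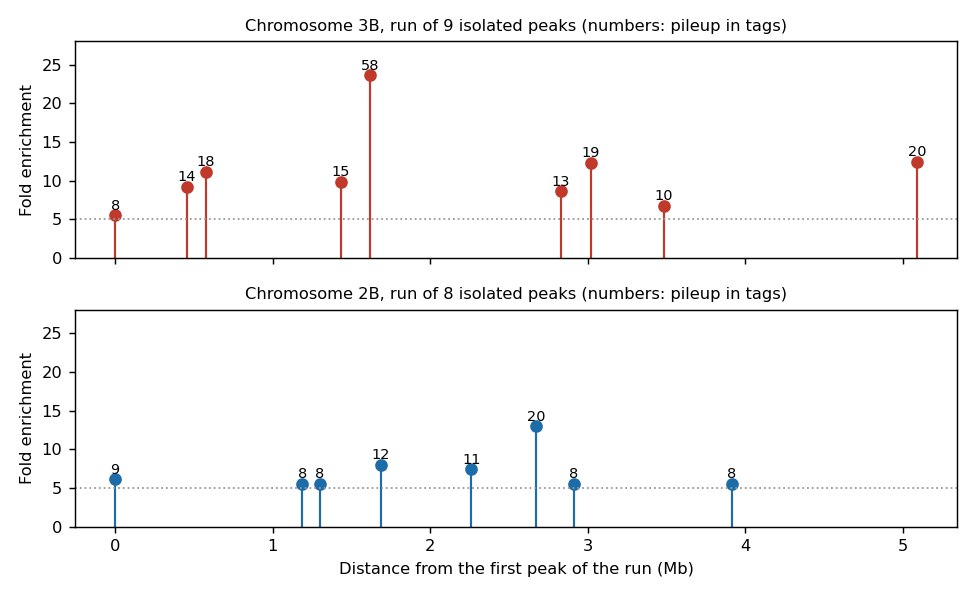
The fold enrichment of each isolated peak (vertical axis) is drawn against its distance from the first peak of its run (horizontal axis, in Mb) for the longest run on 3B and the second on 2B, with the tags at the summit written above and a dotted line at the authors' limit of 5. The 3B run reaches 23.6, while 4 of the 8 peaks of the 2B run sit at 5.55.

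In fold enrichment isolated peaks were close to the others. Their median was 6.32 (95% interval of the median 6.17 to 6.61), with quartiles at 5.55 and 7.63, and that of the other 459064 peaks was 6.18, with quartiles at 5.55 and 7.33. Within chromosomes the median was higher in isolated peaks on 12, lower on 8 and equal on 1, with differences between -0.07 and 0.68. The difference of 0.147 between the medians had an interval that reached from -0.00611 to 0.431. The 1 added to both terms of the ratio weighs most at a low background. The median background was 0.634 tags in isolated peaks and 0.986 in the others.

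The upper end held more of them. A fold enrichment above 10 was found for 57 isolated peaks, or 5.35% (4.15 to 6.87%), beside a background of 2.89% over all chromosomal peaks. The share was higher than in the other peaks on 13 of 21 chromosomes. Of the 57, 34 were on B, with 12 on 3B and 9 on 7B, 13 on A and 10 on D, and 33 were in the outer 10% at either chromosome end. Above 15 there were 9 isolated peaks, or 0.844% (0.445 to 1.60%), beside 0.139%. In those outer stretches 8.05% of isolated peaks (5.79 to 11.1%) exceeded 10 against 3.65% of the others there, and between 30 and 50% of the length 3.38% (1.72 to 6.52%) against 2.60%. A false discovery rate below 1e-10 was found for 219 isolated peaks, or 20.5% (18.2 to 23.1%), an interval that holds the 19.7% of the list.

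The strongest isolated peak was 2A:47335293-47335558, with a fold enrichment of 25.7 from 45 tags, gaps of 163 and 110 kb and 1 removed call in them. The second was the 3B peak of the longest run. The third, 3B:3685227-3685818, had a fold enrichment of 22.9 from 72 tags, the most of any isolated peak. Unlike the others it had 10 removed calls in its gaps of 117 and 125 kb, or 41.3 per Mb, near the 44.4 over all gaps. The fourth, 2B:681520168-681520473, reached 20.97 from 33 tags and the fifth, 6A:32246285-32246527, reached 20.4 from 32 tags, each at the lowest background and with 1 removed call. Strong isolated peaks were thus found both in call-poor stretches and where removed calls were near their rate over all gaps. The lowest fold enrichment was 5.04, at 7D:44660306-44660699, from 13 tags over a background of 1.78.

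Tags at the summit and the local background were worked back from the fold enrichment and the p-value. The median summit of an isolated peak carried 11 tags (quartiles 9 and 14), and that of another peak 12 (10 and 15). At least 20 tags were found for 67 isolated peaks, or 6.29% (4.98 to 7.90%), beside 8.02% in the list. The minimum of 8 tags was found for 207, or 19.4%, against 9.84% of the others. The counting error of such small numbers is wide, so the rank of single weak peaks is not firm.

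The local background was lower around isolated peaks. It was at the lowest value of the list, 0.621 tags, for 527 isolated peaks, or 49.4% (46.4 to 52.4%), beside 22.0% of all chromosomal peaks. So many peaks share this value that it acts as a floor, and places with still fewer tags cannot be told apart by it. The shortest peak width, 176 bp, was taken as the fragment length. With that assumption the value corresponds to at most 35.3 tags in the 10 kb around the summit. The rule allows no other summit in that window around an isolated peak, while other peaks may have one there. Whether neighbouring peaks added tags to the background was not tested. The share was higher in isolated peaks than in the others on 20 of 21 chromosomes, 4D being the exception with 9.09% against 22.4%. It was 55.5% on B (51.2 to 59.7%), 47.6% on A (42.0 to 53.3%) and 38.6% on D (32.8 to 44.8%), while in the other peaks it was between 21.3 and 22.5%. Peaks with a long gap on 1 side only lay in between, at 27.0% of 29038, and peaks with no long gap at 21.6% of 430026. The highest background of an isolated peak was 2.96 tags, against 38.8 among the others.

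Isolated peaks were narrow. Their median width was 382.5 bp (95% interval of the median 363 to 405 bp), with quartiles at 254 and 585 bp, against 483 bp, with quartiles at 329 and 662 bp, in the others. The median was lower on 19 of 21 chromosomes, the exceptions being 4D and 7D, where it was higher by 47.0 and 142 bp. On 2D, 3D and 6D the difference was very small, at -9, -2 and -1 bp, so most D chromosomes did not show narrower isolated peaks. A width of at most 250 bp was found for 254 isolated peaks, or 23.8% (21.4 to 26.5%), beside 11.6%. The median width was 477 bp (473 to 480 bp) with a long gap on 1 side and 483 bp (483 to 484 bp) with none, so most of the difference lay between 1 and both sides.

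Width and background went together. At the lowest background isolated peaks had a median width of 283 bp against 350 bp in the others. Above it the medians were 542 and 526 bp, so isolated peaks were the narrower ones only at the lowest background. By subgenome the median width was 355 bp on B, 372.5 bp on A and 467 bp on D for isolated peaks, against 478 to 488 bp for the others. The widest isolated peak, 1D:30571965-30573227, spanned 1263 bp with a fold enrichment of 8.79 from 29 tags. The next 4, on 2A, 6B, 3B and 7A, were 1163 to 1192 bp wide, with fold enrichments between 5.92 and 7.28. Their gaps held 39.4 to 74.2 removed calls per Mb, against 44.4 over all gaps.

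**Figure D5:**
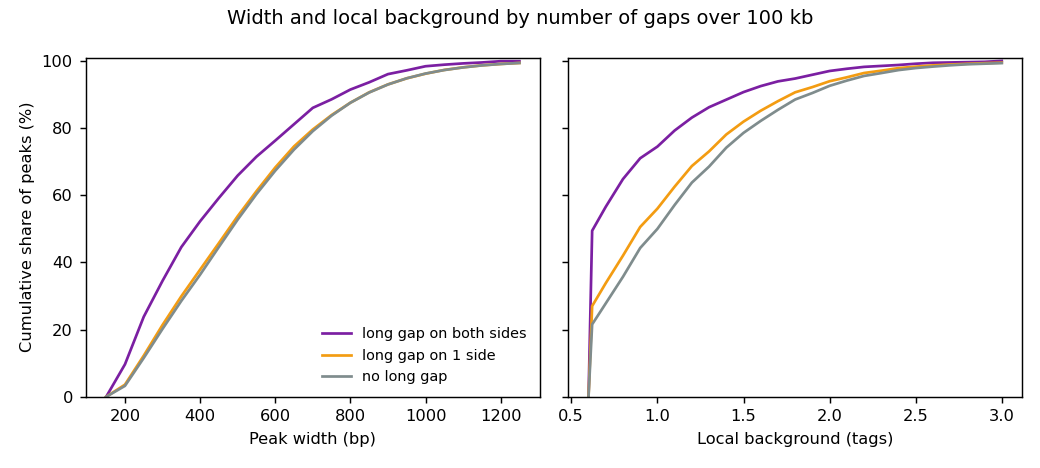
Cumulative shares of peaks (vertical axis, %) are drawn against the peak width in bp (left) and the local background in tags (right) for peaks with a gap over 100 kb on both sides (1066, the isolated peaks), on 1 side (29038) and on none (430026). The width curve of the isolated peaks stands alone above the other pair, and the background curves start at 49.4, 27.0 and 21.6%.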

How the data were processed

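DAP-seq was done with 2 TaCCA1-7D and 2 input libraries. Per the labels and the methods of the study, the authors trimmed the reads with Trimmomatic, aligned them with Bowtie2 2.3.4 to the Ensembl wheat genome, filtered them on mapping quality with SAMtools 1.9, removed duplicates with Picard and called peaks with MACS2, keeping a fold enrichment above 5 and a false discovery rate below 1e-5. The control library and any pooling of replicates are not given in the sources used here. The authors' deposited list gives 1 row per peak, with positions, a score that was not used, the fold enrichment (a ratio at the summit), and the −log10 p-value and −log10 q-value. Starts were written counting from 1. The list holds no library depth, and the tags at the summit of single peaks do not replace it. The supplement of the study reports far fewer reads for the first TaCCA1-7D library than for the second.

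Values were computed in Python 3.11.15 with scipy 1.17.1, pandas 2.3.3 and numpy 2.4.6, and drawn with matplotlib 3.10.9. The whole-number pileup and the local background were solved from the fold enrichment (pseudocount 1) and the Poisson p-value, with a misfit under 0.001 for 100% of the peaks. Removed calls were counted from the missing peak numbers, which never repeat or run backwards. Both steps and the isolation rule were tested on simulated data. Intervals of shares are Wilson intervals, those of medians are binomial order-statistic intervals, and those of differences between shares combine Wilson limits, all at 95%. No test was run, because the summit positions that chose the peaks come from the same calls as the other values and peaks cannot stand for replicates.

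Peaks were named by rule: the 10 isolated peaks with the largest nearer gap, the 5 longest gaps, the 5 highest and the lowest fold enrichment, the 5 widest, those beside the distance limit, the longest run, and the chromosomes with the most and the fewest isolated peaks. The members, rules and alternatives were chosen with earlier results of these data known. The distance, the way of measuring it, the treatment of end peaks, the threshold and the comparison set were varied. The unplaced scaffolds were left out by the rule, and the planned search for AATATC was not run, as it needs the genome sequence.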

Additional observations from a re-analysis of the deposited data

How the results depend on the processing

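The number of isolated peaks depends on the distance, with 15544 at more than 50 kb, 295 at 150 kb and 132 at 200 kb, against 1066. It was 1043 measured edge to edge and 1070 with the end peaks kept, and 57 had a fold enrichment above 10 and 219 a false discovery rate below 1e-10. The median fold enrichment, isolated minus other peaks, was 0.15 and became -0.00611 at 150 kb and -0.00611 at 200 kb, so its direction is not fixed, and it was 0.50 with a false discovery rate below 1e-10 on both sides. The median width, isolated minus other peaks, was -100.5 bp, and -1 bp at 50 kb, -157 bp at 150 kb, -181.5 bp at 200 kb, -63.0 bp with a false discovery rate below 1e-10 and -67.0 bp at the lowest background on both sides. The median pileup differed by -1 tag, and by 0 at 50 kb. The share at the lowest background was higher by 27.5 percentage points, and by 8.93 at 50 kb, 46.2 at 150 kb and 53.0 at 200 kb. The share of numbered calls kept beside isolated peaks was 20.6%, and 22.6% at 50 kb, 26.1% at 150 kb and 28.5% at 200 kb. It counts a single kept call per gap, and over all gaps it was 70.2% at up to 20 kb and 15.9% over 100 kb. Beside isolated peaks it did not fall steadily with length, at 19.9% for 100 to 200 kb, 24.3% for 500 to 1000 kb and 15.5% above. The rule demands long gaps. The 42.4% over all gaps is therefore no like comparison, and the other gaps over 100 kb had 15.4%. Isolated peaks per 1000 peaks on B minus A were 1.36, and 2.69 at 50 kb, 0.673 at 150 kb and 0.397 at 200 kb, and on D minus A 0.147, and 4.25 at 50 kb, -0.146 at 150 kb and -0.0991 at 200 kb. The share in the middle 60% of the chromosome was 45.9%, and 60.4% at 50 kb, where all peaks had 59.9%. The causes were not tested, and the remaining 15 of 42 alternatives stayed within the limits of the main values. No paired analysis was possible because the list does not separate the libraries, and for the same reason no replicate could be left out. Depth limits single peaks, most of which rest on fewer than 20 tags.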
